A study of Mus musculus with 2 samples.

Results

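Open chromatin at the GATA factor genes and at the Friend of GATA (FOG) genes was described in cardiac progenitor cells (CPCs) from a list of ATAC-Seq peaks, the regions that Tn5 transposase could reach and cut. The genes were Gata2, Gata3, Gata4, Gata5, Gata6, Zfpm1 and Zfpm2, chosen by name, and a peak belonged to a gene when the deposited symbol matched. All 7 genes had at least 1 peak, and together they held 22 of the 26232 distinct peaks in the list, which were spread over 15351 genes. The CPCs came from E14 Tg(Nkx2-5-EmGFP) mouse ES cells, which report Nkx2-5 activity and are labelled C57BL/6. They were grown with LIF and BMP4, aggregated with Activin A, VEGF and BMP4, plated as a monolayer with ascorbic acid, VEGF, bFGF and FGF10, and taken at day 5. The labels do not say that the cells were sorted, so a peak may come from some of the cells only. The peak list is labelled control, while the sample titles name only day 5 CPCs. Cells with Isl1 knockdown, which the series also names, were not analysed here. The 2 samples were replicates from independent differentiations, and 1 list of the regions found in both stood for them. There was no second condition, no value per replicate and no depth, so no replicate error could be given and no difference was tested. Nkx2-5, Isl1, Tbx5 and Mef2c, genes that mark cardiac progenitors, carried 3, 8, 5 and 4 peaks. The cardiac gene Hand2 had none by the deposited symbol, although the midpoint of a peak assigned elsewhere lay 8315 bp away. Of all protein coding genes 62.5% had a peak, so a peak at such a gene does not show the cell type.

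GATA factors bind DNA through paired zinc fingers that recognise short sequences with GATA at the core. Gata4, Gata5 and Gata6 act in heart and endoderm, while Gata2 and Gata3 are best known in blood precursors and in T cells and other ectodermal and mesodermal tissues. FOG proteins do not rely on DNA binding of their own. They attach to the amino-terminal zinc finger of a GATA factor and bring corepressors such as the NuRD complex and CtBP. Zfpm1 encodes FOG1, known from blood cell formation, and Zfpm2 encodes FOG2, the partner of GATA4 in heart morphogenesis and coronary vessel development.

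Every one of the 7 genes had a peak, against 62.5% of 21900 protein coding genes in a RefSeq table. Zfpm1 had 7 peaks, Gata4, Gata5 and Gata6 had 3 each, and Gata2, Gata3 and Zfpm2 had 2 each. At least 3 peaks were thus found at 4 of the 7 genes, compared with 10.3% of coding genes. The mean was 3.14 peaks per gene, against 1.71 over all genes with a peak. Only 0.977% of genes with a peak had as many as the 7 of Zfpm1, while 16.5% had 3 or more and 39.2% had 2 or more. The count of Zfpm1 rested on the deposited assignment. When each peak went to the nearest GENCODE coding start, Zfpm1 had 3 peaks, fewer than the 4 each of Gata3, Gata4, Gata5 and Gata6, and Gata2 and Zfpm2 kept a count of 2. Starts of noncoding genes were not considered there, and 1 peak gained by Gata3 lay 784568 bp from its start.

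Most of the 22 peaks were far from the start site to which they were assigned. By the deposited distance, measured from the transcription start site (TSS) to the peak midpoint, 5 peaks lay within 1 kb, 4 between 1 and 10 kb and 13 beyond 10 kb. The last class was 59.1% of the peaks of these genes, against 41.4% of all peaks. Zfpm1 alone gave 6 of these 13 distal peaks. Upstream positions were more frequent than downstream ones, with 15 of 22 peaks upstream, whereas 40.3% of all peaks were upstream. Beyond 10 kb, 9 of the 13 were upstream, against 43.3% of all peaks in that class. The side is that of the midpoint, and the upstream peaks nearest the start of Gata2, Gata4, Gata6 and Zfpm2 also covered the start. Zfpm1 gave 4 of the upstream peaks, all beyond 10 kb and all nearer to the GENCODE coding gene Gm22. Peak midpoints fell in introns in 9 cases, in intergenic sequence in 11, in a coding exon in 1 and in the non-coding part of an exon in 1. The Gata6 start peak was counted in an intron of 1010001N08Rik, and the Zfpm2 start peak as intergenic although it covered the start. No share of all peaks is given beside these classes.

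**Figure D1:**
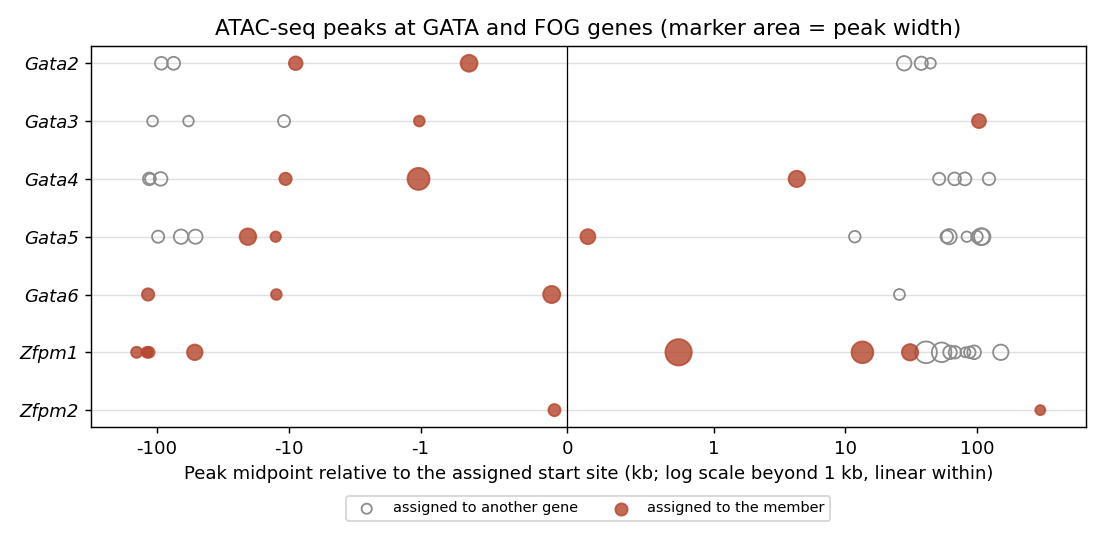
Position of every peak at the 7 genes, as midpoint distance from the assigned start site in kb (linear within 1 kb, logarithmic beyond), with marker area proportional to peak width. Filled markers are the 22 peaks assigned to the gene, open markers are other peaks within the gene body plus 100 kb, and Gata4, Gata5 and Gata6 each show a filled marker upstream, at -10568, -12555 and -12402 bp.

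The peak at or nearest the TSS differed in span between the genes. At 5 genes its midpoint was within 1 kb, against 50.0% of coding genes with such a peak. The distances were 669 bp upstream for Gata2, 142 bp downstream for Gata5, 105 bp upstream for Gata6, 761 bp downstream for Zfpm1 and 86 bp upstream for Zfpm2. Gata3 and Gata4 lay just outside this limit, at -1022 and -1036 bp, and differed in whether the peak reached the start. The Gata4 peak was 3724 bp wide and ran from 2898 bp before to 826 bp after the TSS, so it covered the start. The Gata3 peak was 899 bp wide, lay wholly upstream and ended 574 bp short of the start. All the genes except Gata3 thus had an assigned peak over the assigned TSS. Counting every annotated coding start of every gene, 51.2% were covered by a peak.

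**Figure D2:**
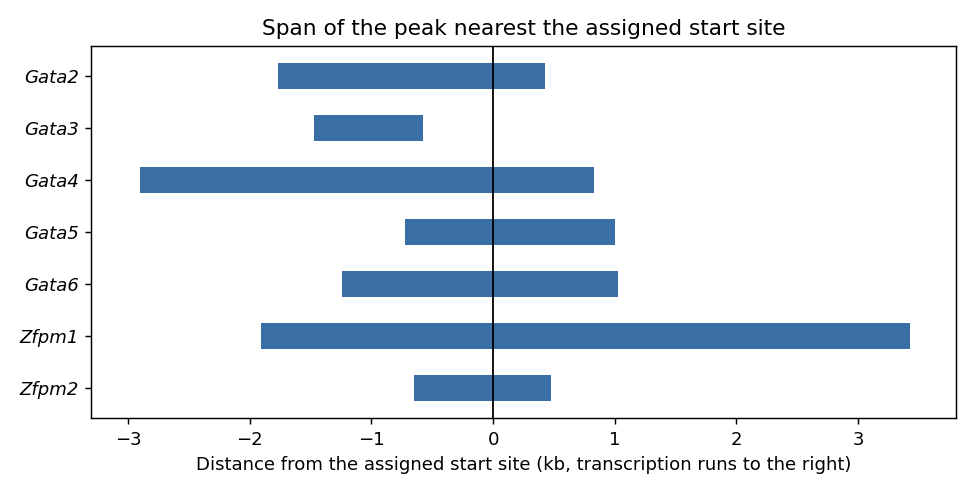
Horizontal extent in kb of the peak nearest the assigned start site (black line at 0) for each gene, with transcription running to the right. The Zfpm1 peak extends 3427 bp into the gene, the Gata4 peak reaches 2898 bp upstream, and the Gata3 peak does not reach the start.

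Gata4, the GATA factor of early heart muscle, is transcribed from the minus strand of chromosome 14 (63817759 to 63890529, mm9, ENSMUSG00000021944, assigned transcript NM_008092). Its start peak (63863283 to 63867006) ranked 96th in width of all 26232 peaks and was wider than 99.1% of peaks at 1 to 10 kb. GC bases made up 57.4% of it, and CpG occurred at 0.53 of the rate its base composition predicts (the CpG ratio). The peak covered 3 annotated start sites that lie close together, at 63864085, 63864097 and 63864108. A second peak of 2052 bp (63858812 to 63860863) lay 4271 bp downstream with its midpoint in a coding exon. Another of 1175 bp (63874090 to 63875264) lay at -10568 bp, in an intron of longer Gata4 transcripts. The start sites of these longer transcripts, at 63889961 and 63890529, had no peak, and the nearest one was 14.7 and 15.3 kb away. An internal start at 63832444 was 19.1 kb from any peak. The open regions of Gata4 thus lay near the clustered starts and not at the far ones. Peaks covered 9.55% of the gene body, a share reached by 28 of 2857 other coding genes of similar length (within 1.5 times).

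The 250 bases before the Gata4 start on the minus strand (chr14:63864109-63864358) and the 300 bases at the centre of the upstream peak (chr14:63874527-63874826, plus strand) are shown because both are rich in CpG although only the first is at the assigned TSS. In the first, capitals mark the CpG dinucleotides. In the second, capitals would mark matches to the GATA motif or to the LIM-homeodomain core defined below, and there were none.
Gata4 before the start: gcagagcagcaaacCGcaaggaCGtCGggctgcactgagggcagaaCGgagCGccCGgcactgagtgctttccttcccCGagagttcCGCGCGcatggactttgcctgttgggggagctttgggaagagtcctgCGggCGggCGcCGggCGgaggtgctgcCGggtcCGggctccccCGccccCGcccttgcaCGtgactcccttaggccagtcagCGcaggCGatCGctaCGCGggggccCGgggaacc
Gata4 upstream peak centre: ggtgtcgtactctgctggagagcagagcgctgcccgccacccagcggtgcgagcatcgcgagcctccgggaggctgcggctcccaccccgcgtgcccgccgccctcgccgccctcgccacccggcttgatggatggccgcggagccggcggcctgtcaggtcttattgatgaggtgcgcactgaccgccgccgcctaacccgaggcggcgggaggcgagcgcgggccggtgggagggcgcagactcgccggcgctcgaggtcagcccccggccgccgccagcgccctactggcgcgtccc

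The promoter stretch held 26 CpG and had a GC content of 70.8%, and the upstream window held 43 CpG and had a GC content of 76.3%. Over 46015 windows of 250 bases before coding starts the median was 9 CpG, with quartiles of 3 and 19. The whole upstream peak had a CpG ratio of 0.85, the highest of the 22 peaks, while the median of all peaks beyond 10 kb was 0.23.

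Gata5, which acts with Gata4 and Gata6 in heart and endoderm, is transcribed from the minus strand of chromosome 2 (180059838 to 180069404, ENSMUSG00000015627, NM_008093). Its start peak of 1723 bp (180068382 to 180070104) reached from 720 bp before to 1003 bp after the TSS and covered both annotated starts. Intergenic peaks lay at -12555 bp (180081519 to 180082360, 842 bp wide) and at -20372 bp (180088698 to 180090815, 2118 bp wide). The farther one was wider than 98.2% of peaks beyond 10 kb, and the nearer one was close to the middle of that class, wider than 44.2%. Their CpG ratios were 0.20 and 0.18, against 0.75 at the start.

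The centre of the peak at -20372 bp (chr2:180089607-180089906, plus strand) is shown because it held matches to all 5 motif families searched. A GATA match was the hexamer AGATAA, its variant ending in G (AGATAG), or either of these with T in place of the leading A (written TGATAA and, with final G, as TGATAG). The LIM-homeodomain core, of the type bound by Isl1, was spelled TAATGG here. The T-box core was taken as AGGTGT and the TEAD core was taken as GGAATG. The NK2 core was taken as CAAGTG or, with a T at its first position, as TAAGTG. Each was searched on both strands. Capitals mark the GATA and LIM-homeodomain matches, and a match is a description of the letters and not a binding site.
Gata5 upstream peak centre: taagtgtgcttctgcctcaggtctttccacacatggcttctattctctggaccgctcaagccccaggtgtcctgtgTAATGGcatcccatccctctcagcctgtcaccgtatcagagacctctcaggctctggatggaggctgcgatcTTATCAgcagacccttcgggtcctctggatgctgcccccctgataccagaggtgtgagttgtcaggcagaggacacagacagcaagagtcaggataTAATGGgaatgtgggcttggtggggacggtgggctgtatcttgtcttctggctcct

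This window had 1 GATA match, 2 LIM-homeodomain matches, 2 T-box matches, 1 TEAD match and 1 NK2 match. The T-box, TEAD and NK2 matches are in lower case, and the TEAD match shares a base with the second LIM-homeodomain match.

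Gata6 lies on the plus strand of chromosome 18 (11052508 to 11085633, ENSMUSG00000005836, NM_010258) in a gene-poor interval, with the nearest coding neighbours Mib1 234 kb upstream and Rbbp8 706 kb downstream. Its start peak was 2265 bp wide (11051272 to 11053536), wider than 92.4% of peaks within 1 kb, and reached 1237 bp upstream and 1028 bp downstream of the TSS. The upstream part also lay in the noncoding gene 1010001N08Rik, which runs the other way, so the open region at the start overlapped both genes. Further peaks lay at -12402 bp (887 bp wide) and at -116491 bp (1178 bp wide), both intergenic. A peak of 919 bp inside the Gata6 gene body, 25.7 kb downstream of its start, was assigned to 1010001N08Rik in the list. The Gata6 start peak held 8 GATA matches over its whole length, or 3.53 per kb, and 1.56% of peaks within 1 kb had a density as high.

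The 3 cardiac GATA genes thus shared a pattern of a peak over the start and a further peak upstream, at -10568 bp for Gata4, -12555 bp for Gata5 and -12402 bp for Gata6. A peak 8 to 13 kb upstream was found at Gata2 as well, at -8845 bp, so that 4 of the 7 genes had one, against 3.00% of coding genes. This band was set after the positions were seen, and the peaks in it ranged in width from 842 to 1440 bp. They did not look alike in sequence, with CpG ratios of 0.85 for Gata4, 0.66 for Gata2, 0.21 for Gata6 and 0.18 for Gata5.

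Gata2, needed in blood stem and progenitor cells, lies on the plus strand of chromosome 6 (88143885 to 88157024, ENSMUSG00000015053, NM_008090). It has an upstream and a downstream annotated start, at 88143885 and 88148658. The peak of 2189 bp at the downstream start (88146896 to 88149084) reached 1763 bp upstream and 426 bp downstream, and was wider than 91.2% of peaks within 1 kb. The upstream start, known as the one used in blood and neural cells, was not covered, and the nearest peak was 3011 bp away. The other peak, of 1440 bp (88139094 to 88140533), lay in intergenic sequence at -8845 bp from the downstream start and -4072 bp from the upstream one. Downstream of the gene, 3 peaks between 27.9 and 44.2 kb from the Gata2 start were assigned to Dnajb8.

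The centre of the Gata2 upstream peak (chr6:88139664-88139963, plus strand) is shown because its GATA matches, in capitals, lie on opposite strands (1 reads forward and the other as its reverse complement).
Gata2 upstream peak centre: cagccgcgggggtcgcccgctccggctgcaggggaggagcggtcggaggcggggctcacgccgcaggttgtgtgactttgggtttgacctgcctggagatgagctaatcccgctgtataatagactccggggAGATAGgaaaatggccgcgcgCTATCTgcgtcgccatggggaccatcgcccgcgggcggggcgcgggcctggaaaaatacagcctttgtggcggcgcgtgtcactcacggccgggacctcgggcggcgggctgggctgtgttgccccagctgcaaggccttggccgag

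This window held 2 GATA matches and no match to the other motif families, and it was CpG-rich, with 32 CpG and a GC content of 68.3%.

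Gata3, a regulator of T cells and of several embryonic tissues, is transcribed from the minus strand of chromosome 2 (9778705 to 9811661, ENSMUSG00000015619, NM_008091). It was the gene of the 7 with no assigned peak over its assigned TSS. Besides the peak of 899 bp upstream of the start (9800801 to 9801699, narrower than most peaks at 1 to 10 kb, with 36.0% of them narrower still) there was 1 peak of 1507 bp at 102917 bp downstream (9696558 to 9698064). A second region of Gata3 was open in the list under another name. The peak from 9810519 to 9811632, assigned to 9230102O04Rik at 92 bp from its TSS, covered the start of a longer noncoding Gata3 transcript (9811629) and ended 29 bp from the start of a longer coding one (9811661). Counting any peak over any annotated start, all 7 genes had an open start, Gata3 only through that noncoding transcript. Of the 17 annotated coding starts of the 7 genes, 9 were covered by a peak, against 51.2% of all coding starts, so these were close.

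The centre of the downstream Gata3 peak (chr2:9697161-9697460, plus strand) is shown because it is a tandem repeat, with no match to the GATA or LIM-homeodomain motif to capitalise.
Gata3 downstream peak centre: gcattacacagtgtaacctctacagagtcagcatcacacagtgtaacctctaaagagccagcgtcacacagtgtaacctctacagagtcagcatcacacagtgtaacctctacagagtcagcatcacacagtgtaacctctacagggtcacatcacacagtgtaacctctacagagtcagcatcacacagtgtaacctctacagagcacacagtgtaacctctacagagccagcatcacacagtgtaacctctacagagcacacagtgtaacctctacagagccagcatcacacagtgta

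Of the 32-base words in this peak, 69.7% occurred more than once within it. Only 0.538% of all peaks had as high a share, and 12.4% had any repeated word. Short reads may map to several places in such a sequence, and the part of this in the peak call was not tested. Without it, Gata3 would have 1 peak.

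Zfpm1 (FOG1) had the widest peak and, by the deposited assignment, the most peaks. It lies on the plus strand of chromosome 8 (124806039 to 124861146, ENSMUSG00000049577, NM_009569), where a gene model of over 1 Mb that spans the region was left out of the annotation. Its start peak was 5331 bp wide (124804138 to 124809468), the 15th widest of the list, and reached 3427 bp into the gene. The next peak, at 13443 bp downstream in an intron (124817673 to 124821297), was 3625 bp wide and the 12th widest of the 10848 peaks beyond 10 kb. This interval stood on 2 lines and was counted once. A peak of 2069 bp lay at 30898 bp (124835906 to 124837974), also in an intron. Upstream, 1 peak of 1870 bp lay at -51552 bp (124753555 to 124755424), and 3 narrower peaks of 953, 888 and 937 bp lay at -142274, -118969 and -114659 bp. The upstream peaks were nearest to Zfpm1 only by the start sites that the deposited annotation used. In GENCODE the predicted coding gene Gm22 starts closer to all 4 of them, which would leave Zfpm1 with 3 peaks and no longer with the most of the 7 genes.

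The gene body of Zfpm1 held more than its assigned peaks. A further 2 peaks inside the body, of 3608 and 2939 bp at 40.8 and 53.6 kb from the start, were assigned to Trhr2, a receptor gene that lies 19.7 kb beyond the end of Zfpm1. In all, 5 peaks overlapped the body of 55.1 kb, against a median of 1 for coding genes of 36.7 to 82.7 kb, and 24 of 3333 other such genes had at least as many. These peaks covered 28.4% of the body, against a median of 1.67%, and 0 of the 3333 others reached that share. Of the 22 peaks, 3 were wider than 3000 bp, which were the Gata4 start peak and 2 of Zfpm1, while 1.11% of all peaks were that wide.

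Zfpm2 (FOG2), although the FOG gene of heart, showed the opposite picture. It lies on the plus strand of chromosome 15 (40486588 to 40936138, ENSMUSG00000022306, NM_011766) and is 450 kb long, with the nearest coding neighbours 711 and 343 kb away. It had a start peak of 1130 bp (40485938 to 40487067), narrower than most, with 30.5% of peaks within 1 kb narrower still, and an intron peak of 772 bp at 300386 bp downstream (40786589 to 40787360), the narrowest of the 22. No other peak lay in the body or within 200 kb on either side. The body was covered to 0.279%, against a median of 0.454% for coding genes of 300 to 674 kb, and 271 of 415 others had at least as large a share. Coding genes over 300 kb had a median of 2 peaks in the body, so a low density is usual at this length. The annotated starts of shorter Zfpm2 transcripts, at 40496536 and 40583293, were 9.47 and 96.2 kb from the nearest peak.

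**Figure D3:**
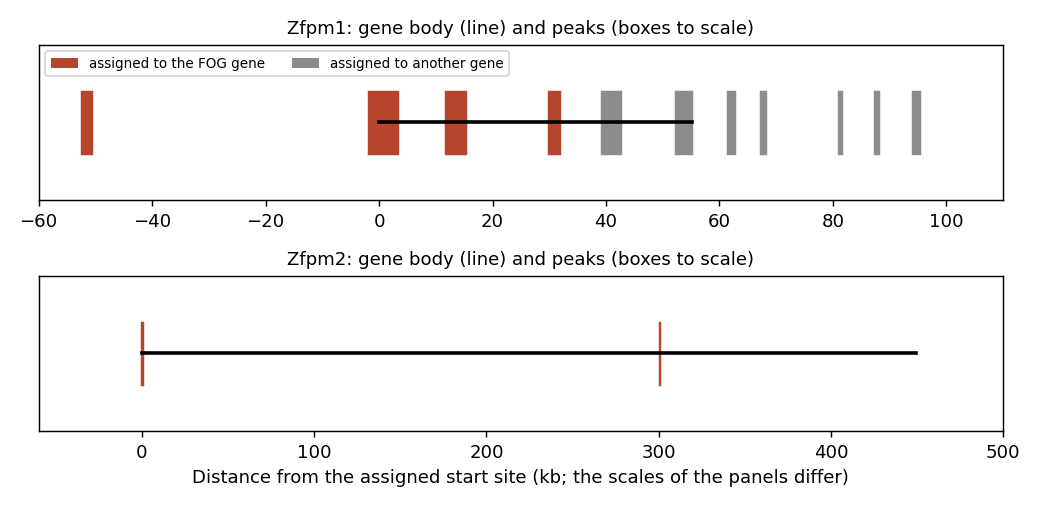
Gene bodies of Zfpm1 and Zfpm2 (black lines, each panel at its own scale in kb from the assigned start) with peaks drawn as boxes to scale. Zfpm1 has 5 peaks across 55.1 kb, of which 2 were assigned to another gene, and Zfpm2 has 2 across 450 kb. The 3 Zfpm1 peaks over 100 kb upstream and a peak 151 kb downstream lie outside the drawn range.

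The centres of the Zfpm1 start peak (chr8:124806653-124806952) and of its intron peak at 30898 bp (chr8:124836790-124837089), both on the plus strand, are shown because the first held the most GATA matches of the 22 peak centres and the second held a pair of LIM-homeodomain matches. Capitals mark both kinds of match.
Zfpm1 start peak centre: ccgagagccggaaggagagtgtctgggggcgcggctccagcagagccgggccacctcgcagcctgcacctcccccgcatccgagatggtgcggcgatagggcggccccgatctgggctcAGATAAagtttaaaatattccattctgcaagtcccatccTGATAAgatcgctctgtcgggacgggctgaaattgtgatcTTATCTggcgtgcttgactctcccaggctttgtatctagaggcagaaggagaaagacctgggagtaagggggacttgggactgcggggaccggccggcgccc
Zfpm1 intron peak centre: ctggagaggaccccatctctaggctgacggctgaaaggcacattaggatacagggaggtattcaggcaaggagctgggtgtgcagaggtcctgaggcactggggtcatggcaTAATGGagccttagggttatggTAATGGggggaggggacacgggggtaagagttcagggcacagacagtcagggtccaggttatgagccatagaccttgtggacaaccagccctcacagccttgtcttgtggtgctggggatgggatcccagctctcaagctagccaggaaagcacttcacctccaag

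The first window held 3 GATA matches, and 0.127% of peaks within 1 kb had as many. The second held 2 LIM-homeodomain matches and no GATA match. The whole start peak held 14 GATA matches, or 2.63 per kb, a density reached by 4.68% of peaks within 1 kb.

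In width, the peaks were above those of the list as a whole, mainly at Zfpm1, Gata4 and the start sites. The 22 widths ranged from 772 to 5331 bp with a median of 1474 bp, against quartiles of 835, 1081 and 1433 bp for all peaks. Within 1 kb of the TSS the widths were 1130 bp for Zfpm2, 1723 bp for Gata5, 2189 bp for Gata2, 2265 bp for Gata6 and 5331 bp for Zfpm1, and 4 of these 5 exceeded the upper quartile of 1691 bp for that class. Between 1 and 10 kb, 3 of 4 exceeded the upper quartile of 1312 bp. Beyond 10 kb, 7 of 13 exceeded the upper quartile of 1097 bp, and 2 were under the median of 880 bp. Zfpm1 contributed 39.6% of the 39.6 kb covered by all 22 peaks. A width depends on the peak caller and the depth as well as on the chromatin, and no value per replicate was given to separate these. The widths may also be those of 1 replicate.

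**Figure D4:**
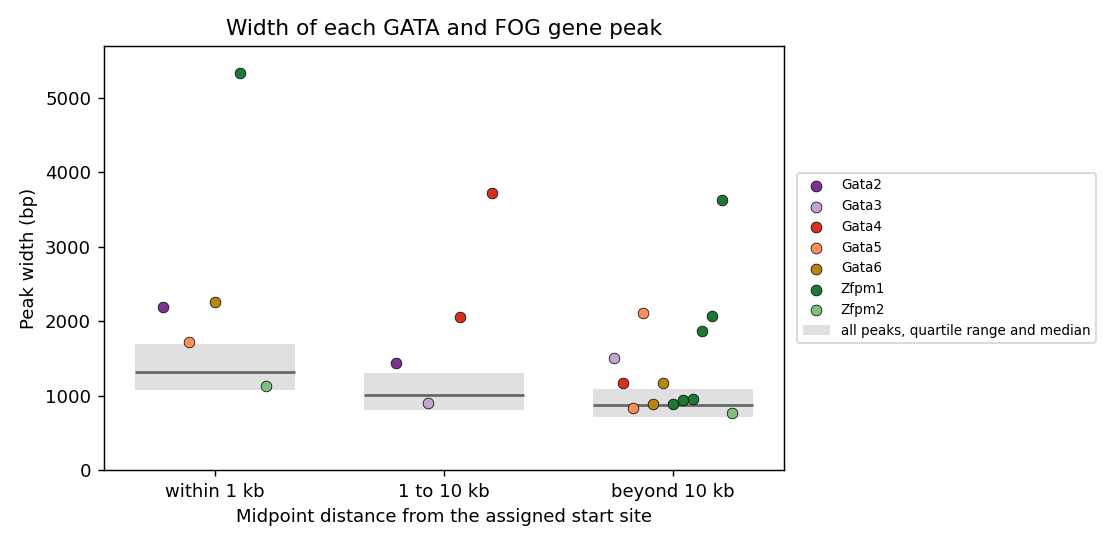
Width in bp of each of the 22 peaks (points, coloured by gene) in 3 classes of midpoint distance from the assigned start, with the quartile range (grey box) and median (line) of all peaks of the class. Of the peaks within 1 kb, 4 of 5 lie above the grey box, which ends at 1691 bp, and the Zfpm1 start peak reaches 5331 bp.

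To ask whether the GATA genes carry GATA motifs at their own open regions, the 300 bases at the centre of each peak were searched. A GATA match was present in 7 of 22 windows (31.8%), against 24.4% of all peaks, so the share was near that of the list. The 7 windows belonged to Gata2 (-8845 bp, 2 matches), Gata4 (start, 1), Gata5 (both upstream peaks, 1 each), Gata6 (-116491 bp, 2), Zfpm1 (start, 3) and Zfpm2 (300386 bp, 1). No Gata3 window had one. Beyond 10 kb, where GATA matches were more common in general, 4 of 13 windows had one (30.8%), against 37.0% of all such peaks. Over whole peaks 19 of 22 had a match, against 69.4%, but wide peaks have more room for one. Per kb, the peaks within 1 kb held 1.98 matches against 0.86 for all peaks of that class, most of them at Zfpm1 and Gata6 with 14 and 8, and those beyond 10 kb held 1.81 against 1.72. Between 1 and 10 kb the order was the other way, with 0.86 matches per kb in the peaks of these genes against 1.33 in all peaks.

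In the central windows the LIM-homeodomain core stood farther from the list. It was present in 5 of 22 windows (22.7%), against 5.39% of all peaks, and in 4 of 13 beyond 10 kb, against 8.08%. The windows were those of the Gata2 start, the Gata5 peak at -20372 bp, the Gata6 peaks at -12402 and -116491 bp and the Zfpm1 peak at 30898 bp. Gata5 and Zfpm1 had 2 matches each in these windows. With the central 500 bases the counts were 5 of 22 against 9.23%. Over whole peaks they were 8 of 22 against 23.7%, but wide peaks have more room for a match, and no rate per kb is given for this core. In the central 300 bases the other families were closer to the list. A T-box core was in 4 windows (18.2% against 12.4%), a TEAD core in 5 (22.7% against 16.5%) and an NK2 core in 5 (22.7% against 18.7%). Beyond 10 kb each of them was in 4 of 13 windows, against 15.2, 23.2 and 23.6% of all such peaks. Over whole peaks the shares were 68.2% against 45.2% for T-box, 72.7% against 47.1% for TEAD and 68.2% against 61.4% for NK2. There the LIM-homeodomain core did not stand apart from the T-box and TEAD cores. With only 22 windows at 7 genes, 1 window moves a share by several percent, and peaks of a gene are not independent.

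**Figure D5:**
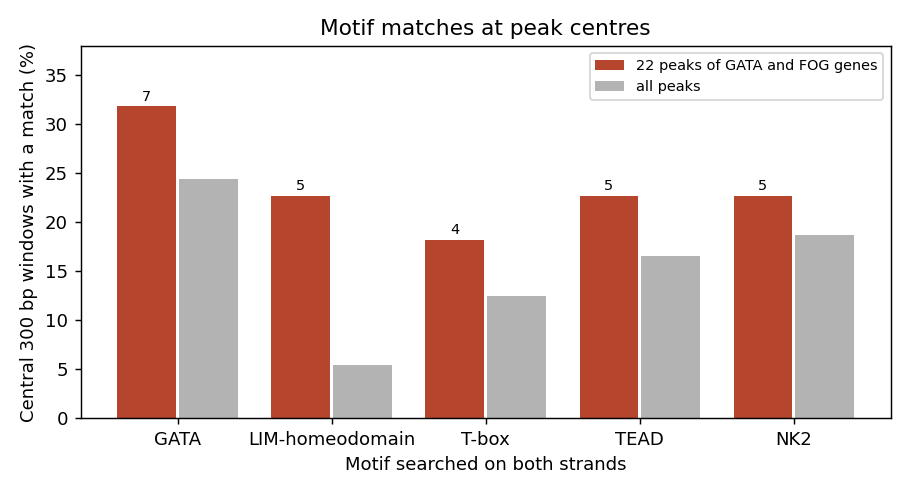
Share in percent of the central 300 bp windows with at least 1 match to each of 5 motif families on both strands, for the 22 peaks of the GATA and FOG genes (red, with the number of windows above the bar) and for all 26232 peaks (grey). The GATA bars are 31.8 and 24.4%, and the LIM-homeodomain bars are 22.7 and 5.39%.

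The neighbourhoods of the genes also held peaks assigned to other genes. Within the gene body plus 100 kb on either side there were 52 peaks, of which 18 were assigned to the gene itself. Gata5 had 13, Zfpm1 12, Gata4 10, Gata2 7, Gata3 5, Gata6 3 and Zfpm2 2, against a median of 5 and quartiles of 2 and 8 for coding genes. Gata6 and Zfpm2, in gene-poor surroundings, were thus below the median, though not below the lower quartile. Gata6 nevertheless had as many assigned peaks as Gata5. Upstream of Gata5, a peak of 1546 bp lay over the start of Mir1a-1hg, the host transcript of a muscle microRNA, at -50.9 kb from the Gata5 start, and another of 1592 bp lay beside Mir133a-2, at -65.5 kb. A further peak of 1033 bp, 11.8 kb downstream of the Gata5 start, was assigned to the antisense gene Gata5os and held 2 GATA matches in its centre.

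Genes that work with the GATA factors were counted in the same list. Of 8 cardiac partners of GATA4, 7 had a peak, with a mean of 4.14 peaks each, led by Isl1 with 8, and Hand2 had none assigned. Of 6 partners of GATA2 in blood formation all had a peak, with a mean of 3.00, led by Runx1 with 7. Of 12 corepressor genes of the NuRD and CtBP type that FOG proteins recruit, 11 had a peak, 10 of them within 1 kb of the TSS, and Mbd3 had none. Rbbp7, Mbd2 and Ctbp2 had the most in that list, with 3 each. Of 8 contractile and hormone genes known as GATA4 targets 5 had a peak, led by Tnnt2 with 3, and Nppa, Myh6 and Tnnc1 had none. Of 6 other genes of the GATA zinc finger type 3 had a peak, led by Gatad2a with 4, while the blood factor Gata1, Gatad2b and Zglp1 had none. With a mean of 3.14, which includes the 7 deposited peaks of Zfpm1, the GATA and FOG genes were closest to the GATA2 partners, at 3.00. The cardiac partners were higher, at 4.14. Lower means were those of the zinc finger relatives, the NuRD and CtBP genes and the GATA4 targets with a peak, at 2.33, 1.82 and 1.60. Of all protein coding genes, 62.5% had a peak and 50.0% had one within 1 kb. The GATA4 targets with a peak were thus at the share of all coding genes, and the GATA zinc finger relatives were below it. These lists are small and were not tested.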

How the data were processed

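ATAC-Seq was measured in 2 replicate samples of day 5 CPCs. Per the study's methods and the submitters' processing notes, the authors mapped reads to mm9 with bowtie2, filtered them with samtools, removed duplicates with Picard 1.136, called peaks in each replicate with MACS14, dropped regions on the ENCODE blacklist and used bedtools 2.15 to keep regions overlapping in both replicates. No correction for the Tn5 cut position beyond the shift at peak calling was described. The deposited values are interval ends and a distance from a TSS in bp, negative when upstream, with an accession and a symbol, and the list has no score. How ATAC-Seq peaks were assigned to genes was not stated, although nearest-TSS assignment was described for ChIP-Seq peaks. Depth and replicate error are unknown, and a region open in 1 replicate only is not listed. The overlap asked for was at least 1 bp, and the bedtools option named (intersect -wa) prints the intervals of 1 input. The ends and widths may thus be those of 1 replicate.

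Of 26429 lines, repeats were collapsed to 26232 distinct intervals, printed 1-based on mm9. Annotation was GENCODE vM1 and sequence NCBIM37, the same assembly, and no interval ran past a chromosome end. Coding genes for background shares came from RefSeq (GRCm38.p6, names only), which matched 99.8% of the peaks by accession or, failing that, by symbol. Motif scans and interval counts were written in Python 3.11.15 with pysam 0.24.0 and checked on planted motifs. All 7 genes and all their peaks are named, and from the partner lists the genes with the most peaks and those with none. Genes and lists were chosen with earlier results of these data known. The 8 to 13 kb band, the gene body shares, the repeat measure and the CpG counts were chosen after the values were seen.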

Additional observations from a re-analysis of the deposited data

How the results depend on the processing

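Over 55 combinations of a result and an alternative, 43 stayed within 1.5 times the count, or within the 95% binomial interval of a median, and 12 moved. Of those 12, 7 concerned totals. With a midpoint limit of 500 bp, 3 genes had a start peak in place of 5. With only peaks wider than the median of the list, 7 distal peaks remained in place of 13, and beyond 50 kb there were 7. A GATA match was found in 19 peaks over the whole interval and in 3 windows with AGATAA alone. Neighbouring peaks numbered 34 within 50 kb of the gene bodies and 84 within 200 kb, by construction of the window. The other 5 were counts of single genes. Only wide peaks left 1 of Gata3, 4 of Zfpm1 and 1 of Zfpm2, and assignment to the nearest GENCODE coding start gave 4 to Gata3 and 3 to Zfpm1. The samples could not be left out in turn, since the list gives 1 set of intervals for both. No paired analysis was possible because all samples belong to 1 condition. Depth limits what a missing peak can show, and a gene start without a peak was not measured as closed.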
